A study of Mus musculus with 6 samples.

Results

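mmu-miR-193 and its cluster partner mmu-miR-365, called miR-193 and miR-365 here, are 2 of the 577 microRNA entries measured on arrays of mouse oocyte RNA. They were taken by name: miR-193 because its signal was higher in young large oocytes than in the other groups, and miR-365 because its gene lies beside that of miR-193. The signals of miR-193 in those comparisons are therefore given as a description with no test, while miR-365 was not chosen on its own values.

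Total RNA from pooled oocytes of C57BL/6 mice was labelled with Cy3 and hybridised to 6 one-colour arrays, 2 per group. Aged large oocytes were 60 to 80 µm wide, from donors of 41 to 43 weeks (42 to 44 weeks in the sample descriptions). Young large oocytes were of that size and their donors were 6 to 8 weeks old. Young small oocytes came from mice of 6 to 8 weeks and measured 20 to 50 µm. The titles call the large oocytes growing and the small ones non-growing, and a further label places the small ones in primordial follicles. The arrays of a group are duplicates by the series text, without a label for the animals or pools behind them, so that p-values reflect the spread among arrays alone, which may be technical.

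MicroRNAs guide Argonaute proteins to messenger RNAs that pair with their seed, bases 2 to 8 of the mature strand. miR-193 and miR-365 are made from neighbouring hairpins in each of a pair of mouse clusters. The cluster with miR-193b is known from brown fat, where it promotes brown adipocyte differentiation in mouse cells. In human tumour cells miR-193a is known to target KIT, whose mouse counterpart is the receptor on the oocyte for Kit ligand from granulosa cells. Mouse oocytes are known for weak repression by microRNAs.

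The mature strands show which array entries can be told apart by sequence. They were taken from RefSeq (GRCm38.p6), where the array's older names were matched by naming convention to miR-193a-3p (miR-193), miR-193a-5p (miR-193*), miR-193b-3p (miR-193b) and miR-365-3p (miR-365); probe sequences were not used here. All 4 entries matched, and capitals mark the seed.
miR-193: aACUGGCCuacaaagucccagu
miR-193b: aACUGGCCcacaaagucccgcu
miR-193*: uGGGUCUUugcgggcaagauga
miR-365: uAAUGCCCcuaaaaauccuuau
miR-193 and miR-193b shared the seed and were identical at 19 of 22 bases. The differences, counted from the 5′ end with the base of miR-193 first, were U9C, A20G and G21C. Of 1679 mature mouse microRNAs in the table, these 2 carried the seed ACUGGCC, and miR-365 alone carried AAUGCCC.

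The hairpins place the members in their clusters. All lie on the plus strand, and capitals mark the mature strand measured as miR-193, miR-193b or miR-365.
Mir193a, chr11:79711969-79712034: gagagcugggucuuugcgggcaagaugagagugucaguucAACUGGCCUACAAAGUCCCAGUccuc
Mir365-2, chr11:79726400-79726511: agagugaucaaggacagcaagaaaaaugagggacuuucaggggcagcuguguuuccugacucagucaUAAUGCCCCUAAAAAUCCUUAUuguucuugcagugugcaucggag
Mir193b, chr16:13449523-13449601: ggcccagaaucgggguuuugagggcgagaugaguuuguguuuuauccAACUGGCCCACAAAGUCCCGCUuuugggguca
Mir365-1, chr16:13453840-13453926: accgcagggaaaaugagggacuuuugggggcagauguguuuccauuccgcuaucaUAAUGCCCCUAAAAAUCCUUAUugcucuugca
On chromosome 11, 14365 bases separate Mir193a from Mir365-2, and no other RefSeq gene overlaps either hairpin. On chromosome 16, 4238 bases separate Mir193b from Mir365-1, and both hairpins overlap 2 predicted genes, Gm32817 and Gm53058. Both miR-365 hairpins give the same mature strand, so the miR-365 entry cannot tell which cluster its RNA came from. miR-193 and miR-193b have separate entries.

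The arrays differed in brightness. Each array's signals were divided by a scaling factor, taken from the 75th percentile of the 56 microRNAs that every array detected. The factors ran from 0.582 to 1.94, highest for the young large arrays and lowest for the young small ones. The number of microRNAs called detected ran from 57 to 102 per array. Of the markers of other cells, 2 of 5 for granulosa cells (miR-21 and miR-212), 1 of 7 for blood cells (miR-223), 0 of 5 for stroma and smooth muscle and 0 of 2 for endothelium were detected on any array. The summed scaled signal of the blood list was 49.4 to 55.5 in aged large, 25.3 to 25.9 in young large and 8.06 to 9.21 in young small oocytes. That of the granulosa list was 18.0 to 24.3, 16.9 to 18.6 and 11.7 to 16.0 in that order of groups. Their part in the results below was not tested, and no microRNA that defines the oocyte was available as a check of its identity.

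mmu-miR-193 was detected in large oocytes of both ages and on neither array of small oocytes. Its raw signal, a background-subtracted intensity in arbitrary units with the scanner software's error, was 5.35 ± 1.68 and 6.63 ± 1.55 in aged large oocytes. It was 20.99 ± 2.40 and 15.4 ± 2.16 in young large oocytes. On the young small arrays it was 1.16 ± 1.49 and 2.25 ± 1.41, both called not detected. Young large oocytes thus had the highest raw signals, and young small oocytes, where it was not detected, the lowest. The groups stood in the same order by the brightness of their arrays. With no scaling, the median log2 difference of all microRNAs tested was -0.65 for aged against young large oocytes. For young large against young small oocytes that median was 1.23. In the aged large oocytes the signal stood only 3.18 and 4.28 times above its own error, beside 8.75 and 7.11 times in the young large oocytes.

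On the common scale miR-193 measured 5.61 and 6.25 in aged large, 10.8 and 10.4 in young large, and 1.98 and 3.81 in young small oocytes. The duplicates of both large groups lay close together, and both young large arrays stood above the other 4. Aged large and young small oocytes have no settled order, since the small ones were not detected: 3 times the error of this entry was 7.70 and 7.20 scaled units there, above both aged values. Had the small oocytes held miR-193 at the mean young large level, their arrays would have read 6.16 and 6.24 raw units. In raw units, 3 times the error of this entry was 4.48 and 4.24 there, and the lowest detected signals of any microRNA were 3.36 and 3.64.

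**Figure D1:**
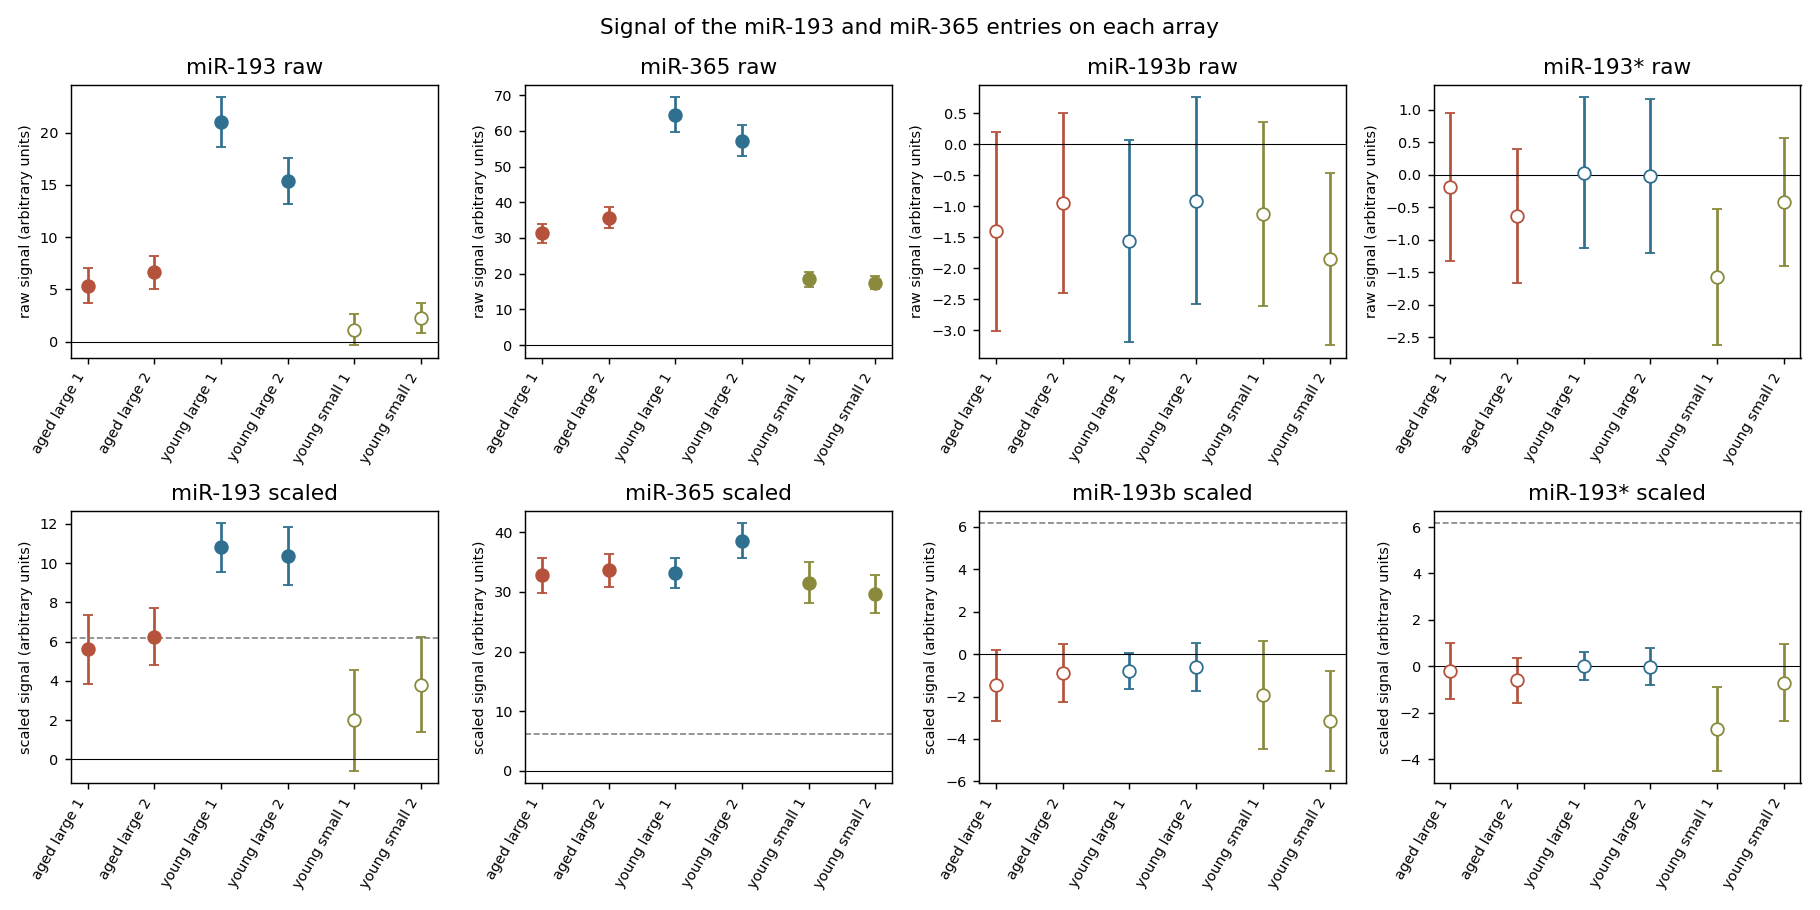
Signal of the 4 entries from the miR-193 and miR-365 hairpins on each of the 6 arrays, raw (top row) and scaled (bottom row), in arbitrary units. Points are single arrays, bars the software's error of the signal, filled points detected and open points not detected, and the dashed line the floor at 6.17; miR-193 stands highest on both young large arrays, scaled miR-365 stays between 29.6 and 38.6, and miR-193b and miR-193* stay near 0.

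Neither miR-193b nor the opposite strand miR-193* was detected on any of the 6 arrays. The raw signal of miR-193b was -1.41 and -0.95 in aged large, -1.56 and -0.92 in young large, and -1.12 and -1.86 in young small oocytes. It was below 0 on all 6 arrays. miR-193* lay between -1.58 and 0.0313 raw units over the 6 arrays, each value within 2 times its error. At this sensitivity, RNA of these strands was not detectable in any group.

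Every array detected mmu-miR-365. Its raw signals were 31.3 ± 2.75 and 35.7 ± 2.93 in aged large, 64.5 ± 4.86 and 57.2 ± 4.39 in young large, and 18.4 ± 1.98 and 17.5 ± 1.87 in young small oocytes (software error of each array). These followed the brightness of the arrays. Once scaled, it measured 32.8 and 33.6 in aged large, 33.2 and 38.6 in young large, and 31.6 and 29.6 in young small oocytes. The aged and young large arrays overlapped, and both small arrays lay below all 4 large ones. The nearest of these, 31.6 in small and 32.8 in aged large oocytes, had software errors of 3.40 and 2.88 scaled units. Young large and young small arrays did not overlap in 64.9% of the microRNAs tested. Aged large and young small arrays did not overlap in 72.7%.

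Aged were first compared with young large oocytes, a contrast meant to show what changes with maternal age. miR-193 averaged 5.93 ± 0.455 in aged and 10.6 ± 0.311 in young large oocytes (scaled signal, SD, n = 2 each). The log2 difference was -0.77, or 1.70-fold lower in aged oocytes, after values under 6.17 were raised to that floor, which touched 1 aged array. Before the floor it was -0.84. In scaled units the difference was -4.65, with an error of 1.49 made from the software's errors, which hold no spread between samples. Of all 97 microRNAs tested, 29.9% passed the threshold (limma with Benjamini-Hochberg adjustment, threshold 0.05), 15.5% as lower in aged oocytes and 14.4% as higher; as this contrast chose miR-193, nothing is read from that for it. The groups did not overlap in 60.8%.

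miR-365 did not pass in the same comparison. It averaged 33.2 ± 0.620 in aged and 35.9 ± 3.80 in young large oocytes (scaled signal, SD, n = 2 each), with a log2 difference of -0.11 ± 0.09 (SE; limma, adjusted p = 0.469). The 95% interval ran from -0.38 to 0.16, or 0.770-fold to 1.12-fold of young, which holds both a small fall and a small rise. The call depends on the scaling. miR-365 passed as lower in aged oocytes under 3 of 7 scalings: none (-0.86), the total signal (-0.53) and 4 control entries named hur (-0.49). These scalings moved the calls of all 97 microRNAs toward lower in aged oocytes. With no scaling 55 passed as lower and 3 as higher. The total signal gave 25 lower and 4 higher, and the hur entries 18 lower and 5 higher. Without young large array 2 the difference of miR-365 was 0.00015.

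Growth was addressed by setting young large against young small oocytes, which share the young large arrays with the comparison above. miR-193 averaged 10.6 ± 0.311 in large oocytes, against 2.90 ± 1.29 in small ones (scaled signal, SD, n = 2 each, the small ones not detected). With each small array set to 3 times the error of this entry, it was 1.42-fold higher in large oocytes. That fold makes no allowance for the error of the large arrays. Against the lowest detected signal of any microRNA on those arrays the fold was 1.77. The fitted log2 difference was 0.78 with both small arrays at the floor and 1.94 with the values before the floor, whose denominator was not detected. Of 94 microRNAs tested, 37.2% passed, 18.1% as higher and 19.1% as lower in large oocytes, and the groups did not overlap in 64.9%.

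miR-365 averaged 35.9 ± 3.80 in young large and 30.6 ± 1.37 in young small oocytes (scaled signal, SD, n = 2 each). The log2 difference was 0.23 ± 0.09 (SE; limma, adjusted p = 0.148), with a 95% interval from -0.04 to 0.50. Its groups did not overlap, as for most microRNAs tested. The difference was positive under all 7 scalings and passed under 5 of them: none (1.76), the total signal (0.66), hur entries (0.51), the median of the microRNAs detected on all arrays (0.27) and quantile normalization (0.27). Scaling by the total signal moved the median of all tested microRNAs by 0.15, and no scaling moved it by 1.23. Of the 94 microRNAs tested, 84 passed as higher and 0 as lower with no scaling. The total signal gave 26 higher and 1 lower, and the hur entries 21 and 2. The median gave 19 and 16, and quantile normalization 19 and 11.

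**Figure D2:**
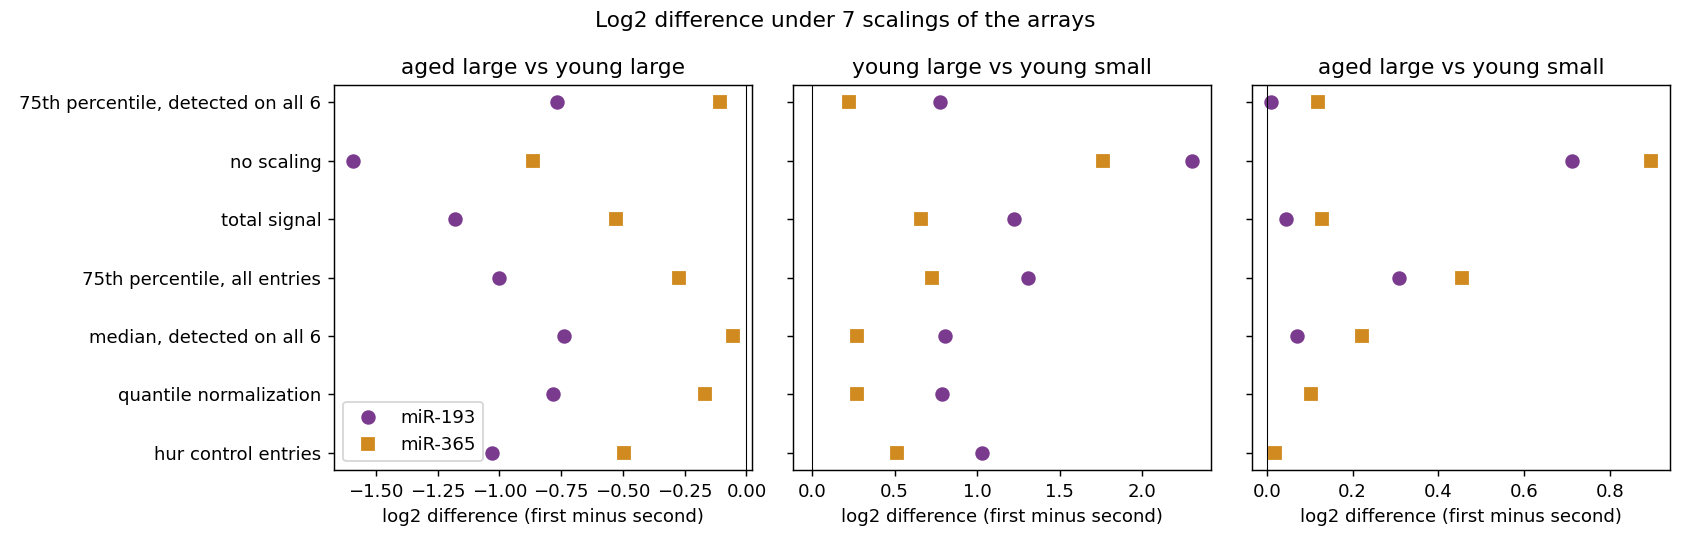
Log2 difference of miR-193 (circles) and miR-365 (squares) in 3 comparisons under 7 ways to scale the arrays, first group minus second, with values under the floor raised to it. miR-193 lies further from 0 than miR-365 in every row of the first 2 panels; in the third, 2 scalings give no value for miR-193 because all 4 arrays are at the floor.

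The ratio of the raw signals of the partners on one array needs no scaling factor and no floor. The signal of miR-193 was 17.1% ± 5.59 and 18.6% ± 4.60 of that of miR-365 in aged large oocytes, and 32.5% ± 4.45 and 26.9% ± 4.30 in young large oocytes (error from the software's errors). On the young small arrays it was 6.28% ± 8.15 and 12.9% ± 8.21, and 24.4% and 24.3% with miR-193 set to 3 times its error. The percentages say nothing of which microRNA was more abundant, because probes differ in brightness. Both young large arrays had a higher ratio than the other 4, with those limits as well. Young large array 2 lay above those limits by less than its own error. The ratio was 1.66-fold lower in aged than in young large oocytes (log2 difference -0.73, error 0.33), and 1.21-fold higher in young large than in young small ones with the small arrays set to that limit. As miR-193 was chosen on these contrasts, the ratios carry no test.

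**Figure D3:**
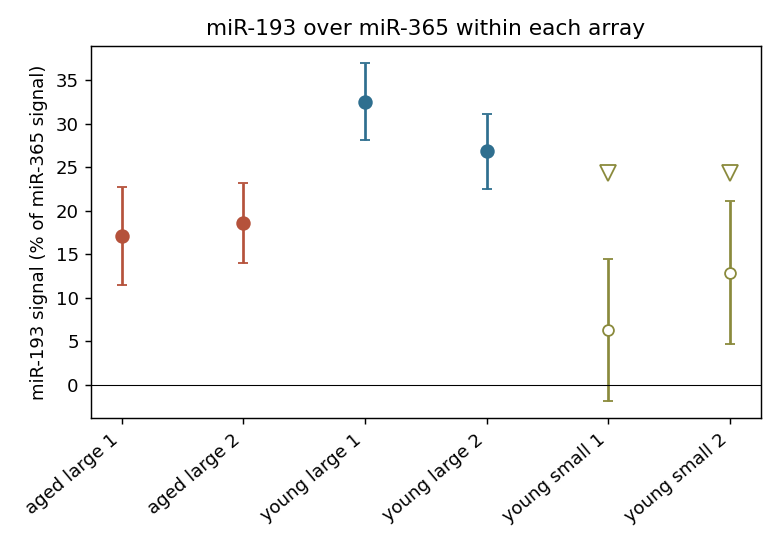
Signal of miR-193 as a percentage of that of miR-365 on the same array, for 2 arrays of each group. Bars are the error from the software's errors. Open circles are values in which miR-193 was not detected, and triangles the values with miR-193 at 3 times its error, 24.4% and 24.3%. Both young large arrays, at 32.5% and 26.9%, lie above all others, the lower one above the triangles by less than its error.

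Aged large and young small oocytes were not set against each other in choosing miR-193, though both entered the choice. They differ in age and in diameter, which cannot be told apart here. miR-193 was detected on both aged large arrays and on neither small array, with mean scaled signals of 5.93 and 2.90 and a difference of 3.03 with an error of 2.10 from the software's errors. No test is given for miR-193 here, since its signals in both groups entered the choice and 3 of the 4 arrays were at the floor, which holds the fitted log2 difference at 0.01. With a lower floor that difference was 1.11, with a pseudocount of 1 in place of the floor 0.87, and with no scaling 0.71, so its size is set by how undetected signals are treated and by the scaling. miR-365 averaged 33.2 ± 0.620 and 30.6 ± 1.37 in these groups (scaled signal, SD, n = 2 each), with a log2 difference of 0.12 ± 0.09 (SE; limma, adjusted p = 0.353, 95% interval -0.13 to 0.37). miR-365 passed as higher in aged large oocytes under 2 of 7 scalings: none (0.90) and the median of the microRNAs detected on all arrays (0.22). With no scaling, 53 of 77 microRNAs tested passed as higher and 0 as lower. With the median, 24 passed as higher and 12 as lower. In the main fit 45.5% of the 77 passed, 23.4% as higher and 22.1% as lower in aged large oocytes. The groups did not overlap in 72.7%.

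Other neighbouring microRNAs give a measure of how far partners can lie apart on these arrays. miR-193 was chosen for its change in both comparisons, so its distance from miR-365 is partly set by that choice, and its place among the pairs is a description. Of 34 listed pairs of neighbours, 18 had both members tested in each of the comparisons by age and by growth. In aged against young large oocytes, the log2 changes of miR-193 and miR-365 differed by 0.66, beside a median difference of 0.19 over the 18 pairs and a range of 0.01 (let-7a and let-7d) to 0.80 (miR-96 and miR-182). Pairs at least as far apart were 3: miR-96 and miR-182, miR-200c and miR-141, and miR-183 and miR-96. In young large against young small oocytes the members differed by 0.55 with miR-193 at the floor on both small arrays, and by 1.72 with a lower floor. The first value stands beside a median of 0.20 and a range of 0.03 (miR-23b and miR-27b) to 0.69 (miR-93 and miR-25). Again 3 pairs were as far apart, of the clusters of miR-106b and of miR-294. The pairs themselves were not recomputed with that floor. In 3 pairs by age and 4 by growth a partner lay at the floor on all arrays compared, miR-182 and miR-25 among them, so their differences reflect the other partner only. The pairs share members and were not tested.

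**Figure D4:**
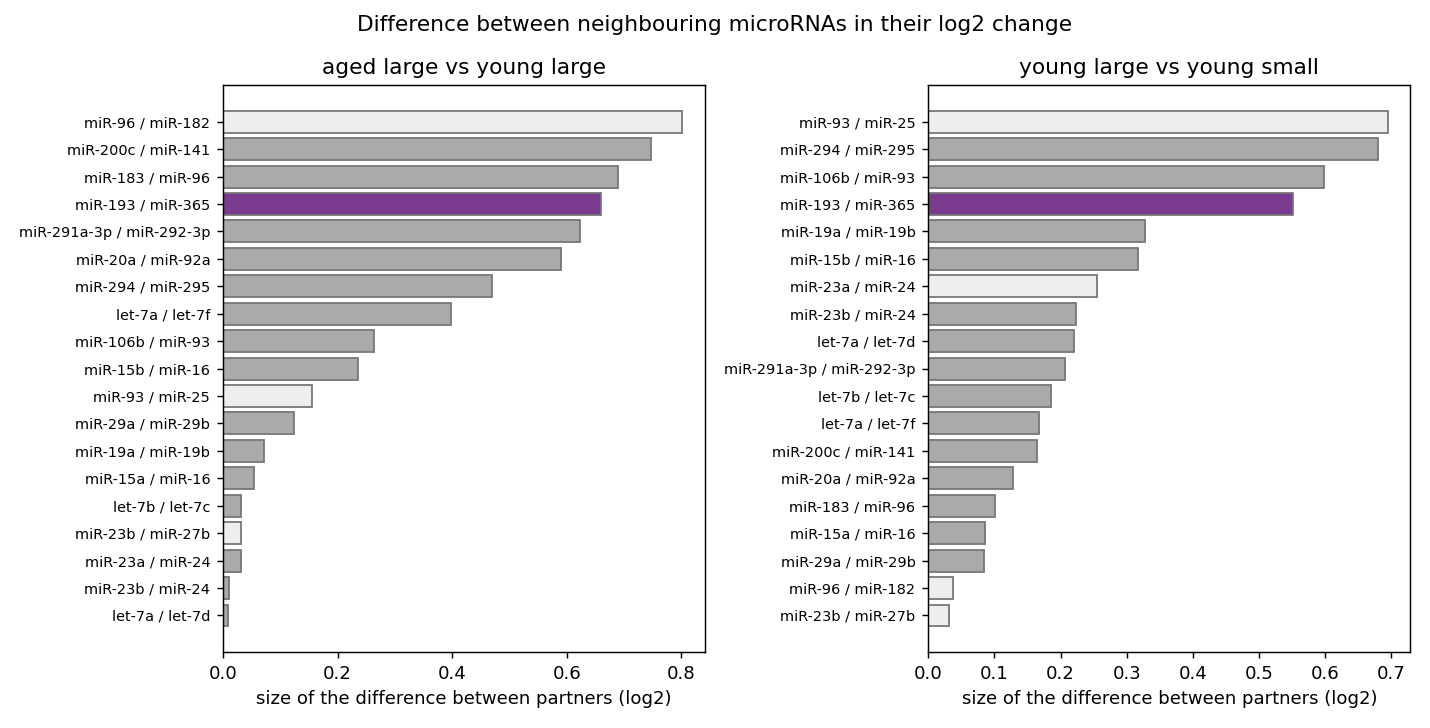
Size of the difference between neighbouring microRNAs in their log2 change, for 18 pairs (grey) and for miR-193 with miR-365 (purple), in aged against young large oocytes (left) and young large against young small oocytes (right). Pale bars have a partner at the floor on all arrays compared; miR-193 and miR-365 stand at 0.66 and 0.55, with 3 pairs above them in each panel.

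The microRNAs whose profile lay nearest to that of miR-193 were miR-140*, miR-30a, miR-30e, miR-197 and miR-19a. Likeness was the root mean square difference of floored log2 signals over the 6 arrays, each profile centred on its mean. It was ranked among 78 other microRNAs detected in young large oocytes. The 5 had differences of 0.17 to 0.24, against a median of 0.51 over the 78. miR-140*, the opposite strand of miR-140, measured 7.40 ± 0.504 in aged large, 9.61 ± 0.446 in young large and 5.98 ± 0.729 in young small oocytes, where it was not detected (scaled signal, SD, n = 2 each). miR-197 was detected in young large oocytes only. miR-30a and miR-30e, of the miR-30 family, were detected on all 6 arrays and likewise had their highest means in young large oocytes. As miR-193 was chosen for its high signal there and the 78 had to be detected there, this likeness is partly set by the choice. It is also partly set by the floor, where miR-193 lay on both young small arrays and on aged large array 1.

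miR-365 itself ranked 11th among the 78 for likeness to miR-193, with a difference of 0.30. Nearest to miR-365 were miR-30c, miR-197, miR-200c, miR-15b and miR-107, at 0.082 to 0.11, against a median of 0.31. miR-107, which lies in an intron of a pantothenate kinase gene, measured 33.8 ± 1.18 in aged large, 35.7 ± 0.674 in young large and 26.8 ± 0.634 in young small oocytes (scaled signal, SD, n = 2 each). miR-197 was near to both members, and part of its profile is the floor, since it was not detected in 2 of the 3 groups. The profiles share arrays and scaling factors, and likeness over 6 arrays is a description only.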

How the data were processed

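Signals were extracted with Agilent Feature Extraction 9.5 by the authors (source: the submitters' processing notes). Per the file headers, a deposited file holds, for each microRNA, a linear intensity summed over its spots, the error of that intensity, whether it was detected, and which fraction of spots counted as inliers. Intensities were background-subtracted (244 to 323 of 577 entries per array at or below 0) without normalization between arrays. The authors' deposited series table holds these intensities with those under 10 replaced by 0 (0 of 577 entries differed; column medians 0).

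Control entries (23) were left out. Each array was scaled by its 75th percentile among the 56 microRNAs that all 6 arrays detected, relative to the geometric mean. Scaled signals under 6.17, the array-wise minimum of detected signals at its highest, were raised to it before log2 was taken. Testing required detection on both arrays of either group compared. Group means were fitted over the 6 arrays with limma 3.58.1 (lmFit, eBayes, R 4.3.3) (3 residual degrees of freedom, two-sided, Benjamini-Hochberg, threshold 0.05). The fit was tested on simulated data in which only microRNAs brighter in young large oocytes than either member were changed, so that test does not cover the members. Entries at the floor throughout pull the spread estimate down. The number of arrays limits the precision.

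The members, the neighbour and marker lists and the rule for named microRNAs (the members, other strands of their hairpins, the 5 nearest profiles of each, and the nearest and farthest neighbour pairs) were chosen with earlier results of these data known. Alternatives were 6 other scalings, a lower floor, a pseudocount of 1, other filters, the series table, only the 4 arrays compared, a replicate block, each array left out, and detection at 3 times the error. Replicate numbers in the labels name no shared animal or day. matplotlib 3.10.9 drew the figures.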

Additional observations from a re-analysis of the deposited data

How the results depend on the processing

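miR-193 kept its direction in all 19 alternatives that gave a value for ageing and all 19 for growth. miR-365 did so in 19 of 20 and 20 of 20. Some of these could not change the direction. The other filters, the fit to only the arrays compared and the replicate blocks returned exactly the main differences. For growth, leaving out either aged array did so too, and for miR-365 the lower floor and the series table. Both young small arrays of miR-193 lay at the floor under every scaling, and also when either young large array was left out. In those settings its growth difference could not turn negative, so they do not test its direction. As miR-193 was chosen for its direction, its counts are a description. With no scaling the log2 differences were -1.59 (miR-193) and -0.86 (miR-365) for aged against young large, 2.30 and 1.76 for young large against young small, and 0.71 and 0.90 for aged large against young small oocytes. With the total signal they were -1.18 and -0.53 by age and 1.22 and 0.66 by growth, and with hur control entries -1.03 and -0.49, and 1.03 and 0.51. The percentile over all entries gave -1.002 and 1.31 for miR-193 by age and growth, and -0.27, 0.73 and 0.46 for miR-365 in the 3 comparisons, none past the threshold. miR-365 also passed with the median, at 0.27 for growth and 0.22 for aged large against young small, and with quantile normalization at 0.27 for growth. For miR-193 a lower floor gave -0.84, 1.94 and 1.11 in the 3 comparisons, and a pseudocount of 1 gave 1.61 and 0.87 in the last 2. With the series table miR-193 was at the floor throughout and gave no value, nor did it in aged large against young small oocytes with quantile normalization, hur entries or without aged large array 2. Leaving out each array in turn gave -0.80 to -0.74 and 0.75 to 0.85 for miR-193 by age and growth, and -0.22 to 0.00015 for miR-365 by age; the highest of these, without young large array 2, changed its sign. For miR-365 it gave 0.12 (without young large array 2) to 0.34 by growth, and 0.05 to 0.20 between aged large and young small oocytes.

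The counts past the threshold (29, 35 and 35 in the 3 comparisons) became 58, 84 and 53 with no scaling, and 6, 17 and 13 with the percentile over all entries. They became 23 for aged large against young small with the total signal, 23 for growth with hur entries, and 16 and 19 for growth and for aged large against young small with the series table. With no filter they were 12, 1 and 18. Leaving out each array gave 16 to 30, 13 to 36 and 23 to 42, the lowest each without young small array 1; by age it was 19 without young small array 2 or without young large array 1. By age the split of 14 higher to 15 lower was 3 to 55 unscaled, 4 to 25 by total signal, 5 to 18 by hur entries and 8 to 17 by quantiles. By growth 17 to 18 became 84 to 0, 26 to 1, 21 to 2 and 19 to 11, and 17 to 0 with the percentile over all entries. Between aged large and young small oocytes 18 to 17 became 53 to 0 unscaled, 13 to 0 with that percentile and 24 to 12 with the median. The median change moved by -0.65 by age, 1.23 by growth and 0.73 between aged large and young small with no scaling. Detection at 3 times the error left miR-193 detected on 4 arrays and miR-365 on 6.

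With a replicate block the ageing count was 16; it was 26 for growth and 32 for aged large against young small, and no call of miR-365 changed. Differences between same-numbered arrays correlated between groups at -0.12, -0.05 and 0.10, over 52 microRNAs above the floor. Exchanging the young large numbers, a choice made after seeing the data, gave 28, 35 and 36. The cause of these changes was not tested. Undetected signals limit what can be said of miR-193 in small oocytes.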
